A study of Mus musculus with 106 samples.

Results

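The genes described here write, copy, read and remove methylation of cytosine in DNA, and they were followed through the founding of the mouse germline. The 10 genes were Dnmt1, Dnmt3a, Dnmt3b, Dnmt3l, Uhrf1, Tet1, Tet2, Mbd2, Mbd3 and Apobec1, chosen by gene symbol, of 18193 genes with a probe set on the array. All 10 were measured, by 23 probe sets in all, and none was dropped for low signal. Each array carried the amplified cDNA of 1 cell, and the 106 cells came from C57BL/6 embryos. The 74 wild-type cells were posterior epiblast at the pre-streak (PS) stage (8 cells), precursors of primordial germ cells (PGCs) at the Early/Mid-Streak (E/MS, 7) and Late-Streak/0-Bud (LS/0B, 17) stages, 8 PGCs each at Early/Mid-Bud (E/MB), at the early head fold (EHF) and at embryonic day 8.25 (E8.25), posterior mesoderm at E/MB (10), and cells with both Blimp1 and Hoxb1 at E/MB (4) and EHF (4). The titles of the last 4 cells say E/MB, whereas their source name and description say EHF, and they are called EHF here. The 32 remaining cells were Blimp1 -/- (knockout), 20 of them at LS/0B and 12 at E/MB, and were picked for the transcript of the null allele. Prdm1 encodes Blimp1, a repressor of transcription without which PGCs do not form. Transcripts in the cDNA placed the cells in groups. PGCs had Blimp1 and stella (Dppa3), and precursors had Blimp1 and Oct4 (Pou5f1). Epiblast cells had Oct4 and T, and mesoderm cells had Oct4 and Hoxb1 but no Blimp1. The labels name neither embryo nor litter, so a group counted as 1 sample, no test was possible, and the spread given is that between cells.

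In mammals, Dnmt3a and Dnmt3b place new methyl groups on cytosines of CpG dinucleotides, with Dnmt3l as a catalytically inactive partner. Dnmt1 copies the marks onto the new strand after replication, and Uhrf1 brings Dnmt1 to half-methylated DNA. Tet1 and Tet2 oxidise methylcytosine, Mbd2 binds methylated CpG, Mbd3 is a subunit of the NuRD chromatin complex, and Apobec1 is a cytidine deaminase. Early PGCs are known for losing DNA methylation across most of the genome.

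The upstream sequences of Dnmt3b and Uhrf1 are shown because these 2 members differed most between PGCs and late precursors. Dnmt1 was at a high level in every cell, and of its windows the one with the most CpG is shown. Each is the 250 bases before a transcription start in RefSeq's promoter table (build GRCm38.p6), 5′ to 3′ on the gene's strand, with CpG in capitals. Dnmt3b has 1 window in the table, at chr2:153649199-153649448 on the plus strand. Uhrf1 has 2, at chr17:56303087-56303336 and chr17:56304063-56304312, both on the plus strand. The window shown for Dnmt1 lies at chr9:20952624-20952873 on the minus strand. Its windows at chr9:20959889-20960138 and chr9:20952980-20953229 are not shown.
Dnmt3b: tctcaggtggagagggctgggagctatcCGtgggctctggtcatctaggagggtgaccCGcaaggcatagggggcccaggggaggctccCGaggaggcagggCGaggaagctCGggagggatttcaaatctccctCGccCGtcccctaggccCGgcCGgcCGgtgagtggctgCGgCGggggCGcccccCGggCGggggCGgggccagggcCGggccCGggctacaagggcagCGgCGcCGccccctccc
Uhrf1, upstream start: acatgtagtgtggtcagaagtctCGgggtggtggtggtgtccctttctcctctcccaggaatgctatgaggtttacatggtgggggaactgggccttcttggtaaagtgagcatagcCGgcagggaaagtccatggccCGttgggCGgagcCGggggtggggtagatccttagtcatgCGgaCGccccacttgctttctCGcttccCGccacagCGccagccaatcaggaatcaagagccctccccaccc
Uhrf1, downstream start: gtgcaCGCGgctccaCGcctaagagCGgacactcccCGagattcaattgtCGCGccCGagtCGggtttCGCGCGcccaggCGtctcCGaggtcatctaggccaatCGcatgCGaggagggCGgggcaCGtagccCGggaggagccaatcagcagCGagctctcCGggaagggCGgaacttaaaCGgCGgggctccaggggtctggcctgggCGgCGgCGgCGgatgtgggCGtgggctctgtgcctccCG
Dnmt1: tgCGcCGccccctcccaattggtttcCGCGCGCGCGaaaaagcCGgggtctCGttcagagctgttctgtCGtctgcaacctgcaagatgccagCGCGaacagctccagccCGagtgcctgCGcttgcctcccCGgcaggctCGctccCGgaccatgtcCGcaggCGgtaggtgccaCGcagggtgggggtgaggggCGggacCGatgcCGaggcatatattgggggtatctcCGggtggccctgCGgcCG

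The Dnmt3b window held 21 CpG, the Uhrf1 windows 10 and 30, and the Dnmt1 window 26, against a median of 6 over the 32851 windows of the table. A search for 4 short motifs on both strands gave the following matches. Matches of different motifs did not overlap in these windows. In the Dnmt1 window, however, the 2 E2F matches share bases with each other, and so do 2 of the 3 CCAAT matches. The letters AGNGAAAG, a core of sites bound by Blimp1, matched once in the upstream Uhrf1 window and in none of the other 3, and they occur in 7.30% of all windows. The letters TTTNNCGC, a core of E2F sites, matched 1 time in each Uhrf1 window and 2 times in the Dnmt1 window, and occur in 4.28% of windows. The GC box GGGCGG matched 3 times in the Dnmt3b window, 1 and 3 times in the Uhrf1 windows and 2 times in the Dnmt1 window, and occurs in 32.7% of windows. CCAAT matched 0 times for Dnmt3b, 1 and 2 times for Uhrf1 and 3 times for Dnmt1, and occurs in 33.8% of windows. The Dnmt1 windows not shown held 2 and 7 CpG, with 4 and 0 matches of CCAAT and 0 of the E2F letters in each. These are descriptions of the letters and not of bound sites.

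Values are log2 of the array signal after raising low values to a background floor of 6.13, and detection in a cell means a signal above the 95th percentile of the background probe sets of the same array. Detected genes ranged from 5511 to 8311 per cell, with group medians between 6912.5 and 7705.5. Signals of different probe sets are not compared with each other, and a value at the floor can be a transcript lost in amplification. Dppa3 was detected in 8 of 8 cells of each PGC group and in 0 of 10 mesoderm cells, but also in 4 of 8 PS epiblast cells, 3 of 7 E/MS precursors, 8 of 17 LS/0B precursors and 4 of 12 E/MB knockout cells. Hoxb1 was detected in 10 of 10 mesoderm cells and in 0 of 8 cells of each PGC group. Prdm1, the targeted gene, was at 7.41 ± 1.20 (SD) in LS/0B knockout cells (12 of 20 detected) and at 7.96 ± 1.36 at E/MB (9 of 12), against 10.65 ± 0.42 in E/MB PGCs and 6.13 in all mesoderm cells. The null allele is transcribed per the labels, so Prdm1 does not check the knockout labels. Among markers of other tissues, Elf5 (trophoblast), Gata1 and Hbb-bh1 (blood) and Pecam1 (endothelium) were detected in 0 cells of every group. Other members of these lists were detected: the median cell had 0.5 to 2.5 of 5 trophoblast markers and 0 to 1 of 6 blood and endothelium markers. The summed signal of the latter reached 11.77 in a cell of the LS/0B precursors, 11.43 in the LS/0B knockout and 11.01 in E8.25 PGCs. Sox17, listed as an endoderm marker and also known in PGCs, was detected in 8 of 8 E/MB PGCs.

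Arrays stood apart in 2 ways that touch the results. Tex101, a gene known from the testis, was detected on all arrays of PS epiblast and of the 3 PGC groups, at 8.0 to 9.20, and on 8 of 17 arrays of LS/0B precursors. It was detected on 0 arrays of E/MS precursors, mesoderm, Blimp1+ Hoxb1+ cells and knockout cells. Comparisons between these sets therefore cannot be told apart from the set of arrays, and where LS/0B precursors take part, the values within 1 set are given too. In addition, the mean of 18 spiked hybridisation controls was 11.23 ± 0.33 on the 10 mesoderm arrays, the lowest at 10.77, and at most 10.75 on any other array. Rescaling to these controls moves the median difference of broadly detected genes between E/MB PGCs and mesoderm from 0.16 to 1.39, so differences from mesoderm are given relative to the deposited scaling.

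Dnmt3b was the member with the largest difference along the lineage. In PS epiblast its cells ranged from 12.43 to 12.82 (median 12.70), in E/MS precursors from 11.22 to 12.37 (median 11.61), and in LS/0B precursors from the floor to 11.73 (median 11.07). In E/MB PGCs the range was from the floor to 10.65 (median 8.36), in EHF PGCs to 9.51 (median 6.27), and in E8.25 PGCs to 10.14 (median 6.13). All epiblast and E/MS cells were high, the PGC groups mixed cells at the floor with cells above it, and every E8.25 PGC lay below every PS cell. The group means were 12.66 ± 0.14, 11.72 ± 0.44, 10.12 ± 2.03, 7.89 ± 1.63, 6.94 ± 1.25 and 6.91 ± 1.51, a difference of -5.76 log2 units between E8.25 PGCs and PS epiblast. Detection went from 8 of 8, 7 of 7 and 14 of 17 cells in the first 3 groups to 5 of 8, 2 of 8 and 2 of 8 in PGCs. The exact (Clopper-Pearson) 95% interval of 2 of 8, for counting error alone, is 3.19% to 65.1%.

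The single steps of Dnmt3b were -0.95 from PS to E/MS, -1.60 from E/MS to LS/0B, -2.23 from LS/0B to E/MB, -0.96 from E/MB to EHF and -0.03 from EHF to E8.25. The second was -0.54 between medians, and -0.53 with the cells with Xist, the X-inactivation RNA of female cells, left out, so that 1 log2 unit was passed in neither. The latter lies almost wholly across the sets of arrays. The first came to -1.05 and -1.03 without the E/MS precursor of replicate 2 or 4, and the fourth lay between -1.32 and -1.12 without the EHF PGC of replicate 2 or 8 or the E/MB PGC of replicate 3, 5 or 6. In the order of the 11 group means, the gap below PS epiblast and the gap of 2.23 below LS/0B precursors exceeded the larger SD of the groups on either side, and no other gap between neighbours did. A second probe set of Dnmt3b ran the same way, at 11.14 ± 0.37 in PS epiblast, 9.06 ± 0.80 in E/MS precursors, 7.59 ± 1.54 in LS/0B precursors and 6.78 ± 0.96 in E/MB PGCs. It was at the floor in every EHF and E8.25 PGC.

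Uhrf1 had a high signal through the precursor stages and was low in PGCs. Its cells ranged from 9.02 to 10.70 in PS epiblast (median 10.26), from 8.56 to 10.48 in E/MS precursors (median 9.58) and from 8.29 to 10.89 in LS/0B precursors (median 10.06). In PGCs they ranged from the floor to 9.19 at E/MB (median 6.13), to 7.80 at EHF (median 6.34) and to 10.15 at E8.25 (median 6.51). It was detected in 8 of 8, 7 of 7 and 17 of 17 of the earlier cells and in 2, 3 and 4 of 8 PGCs. The 2 windows printed for it belong to separate starts in the table. The step from LS/0B precursors to E/MB PGCs was -3.08, and the other 4 steps lay between -0.42 and 0.50. In the order of the group means, the gap of 1.84 between mesoderm, the lowest of the groups other than PGCs, and E8.25 PGCs exceeded the larger SD. The second probe set of Uhrf1 was detected in 0 to 2 cells of each group and carries little information.

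Dnmt3a was lower in PGCs than in the epiblast, with more overlap of cells than for Dnmt3b. It ranged from 7.47 to 10.75 in PS epiblast (median 9.49), from the floor to 8.70 in E/MS precursors (median 8.29) and from the floor to 9.61 in LS/0B precursors (median 7.52). It was detected in 8 of 8, 5 of 7 and 10 of 17 of these cells, and in 1 of 8 cells of each PGC group. The difference of the means was -1.45 from PS to E/MS, -1.12 from LS/0B to E/MB and -2.80 from PS to E8.25. The other 4 probe sets of Dnmt3a gave group means between 6.13 and 8.57 and did not share 1 pattern. Of these, 1 was at 7.50 ± 0.71 in PS epiblast, 7.56 ± 1.20 in LS/0B precursors and 7.02 ± 0.83 in E/MB PGCs. Averaged over all 5 probe sets, the step from LS/0B to E/MB was -0.24, so that this call rests on the probe set used. It also came to -0.99 without the LS/0B precursor of replicate 2.

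**Figure D1:**
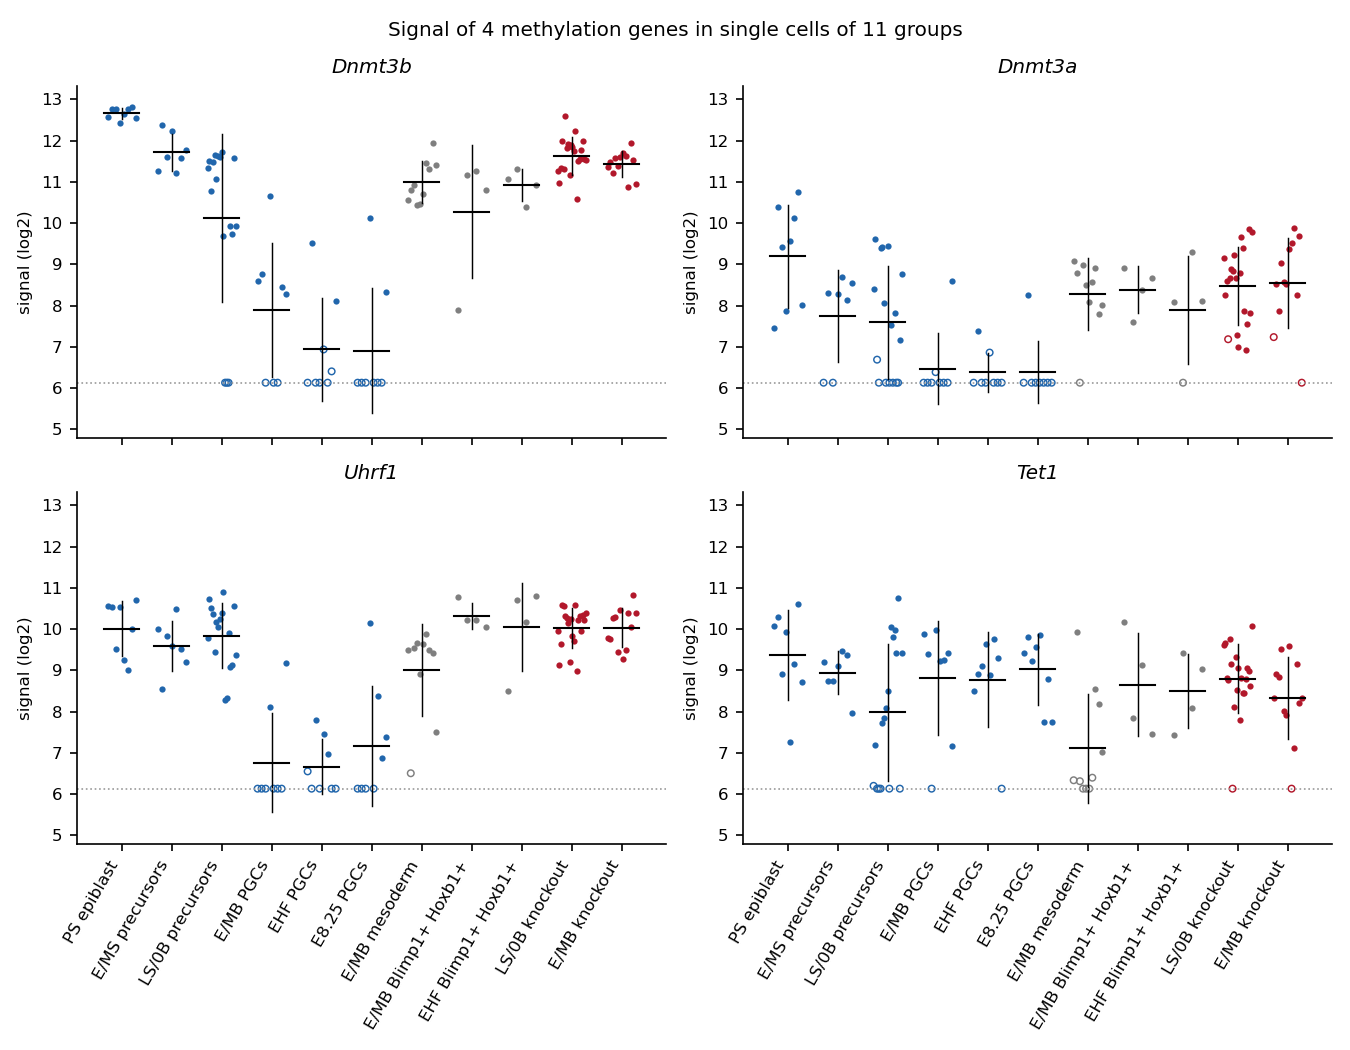
Signal (log2, y axis) of Dnmt3b, Dnmt3a, Uhrf1 and Tet1 in each cell of the 11 groups (x axis); blue, wild-type lineage; grey, mesoderm and Blimp1+ Hoxb1+ cells; red, knockout. Filled points were detected and open points were not, black bars are mean ± SD over cells, and the dotted line is the floor of 6.13. Most PGCs sit at or near the floor for Dnmt3b, Dnmt3a and Uhrf1, where knockout cells are high, and the Tet1 means of the PGC groups (8.78 to 9.02) are near that of E/MS precursors (8.94).

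Among the members, 3 of 10 were lower by 1 log2 unit or more in E8.25 PGCs than in PS epiblast (Dnmt3b, Uhrf1 and Dnmt3a) and 0 were higher. Over all genes, 5.12% were lower and 4.90% higher by that size. The median difference was -0.33 over the members and 0 over all genes. Both groups were on arrays with Tex101, but Xist was detected in 8 of 8 PS epiblast cells and in 0 of 8 E8.25 PGCs. It was also detected in 0 of 7 E/MS precursors. Xist stands in for sex here, and a cell in which it was not detected need not be male. Differences of these 2 groups from PS epiblast therefore cannot be told apart from sex, as far as Xist shows it. In the step from LS/0B precursors to E/MB PGCs, the same 3 members were lower and 0 higher, against 2.66% and 2.96% of all genes. Among genes detected in at least 50 percent of the cells of either group, the shares were 5.38% and 6.52%. In that step, germ cell markers were higher for 6 of 6 genes (median 2.27), with summed signal from 13.37 to 13.95 against 8.12 to 13.81, and mesoderm markers lower for 5 of 6 (median -2.22), with 7.30 to 12.33 against 9.90 to 14.01. The germ cell list was Prdm1, Dppa3, Prdm14, Tfap2c, Kit and Dnd1, and the mesoderm list Mesp1, Mixl1, Hoxb1, Pdgfra, Isl1 and Foxf1. Prdm1, Dppa3, Hoxb1 and, on the epiblast list, Pou5f1 served to place cells in groups. Marker counts are therefore in part set by how the cells were chosen. The step from PS to E/MS had 1 member lower (Dnmt3a, 2.94% of all genes) and 0 higher (2.67%), and that from E/MS to LS/0B 1 lower (Dnmt3b, 1.47% of all genes) and 0 higher (1.48%). Among genes detected in at least 50 percent of the cells of either group, 6.51% were lower and 5.69% higher from PS to E/MS. From E/MS to LS/0B these shares were 3.37% and 3.16%. The steps within PGCs had 0 of 10 members past 1 log2 unit. From E/MB to EHF, 1.92% of all genes were higher and 2.25% lower, and from EHF to E8.25, 1.71% and 1.53%. The groups did not overlap in the lower direction for Dnmt3b between E8.25 PGCs and PS epiblast (0.682% of all genes) and between E/MS precursors and PS epiblast (0.126%). In the comparison of E8.25 PGCs with PS epiblast, germ cell markers were higher for 6 of 6 genes. The epiblast and pluripotency markers were lower for 4 of 6 and higher for 1. The trophoblast markers were higher for 2 of 5, with summed signal from 10.17 to 11.06 against 7.65 to 8.09, while Elf5 was at 0 cells. Their part in the members' differences was not tested.

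Within the LS/0B precursors, Dnmt3b and Uhrf1 reached lower values on arrays without Tex101, with ranges that overlapped between the sets. The means with and without Tex101 were close for Dnmt1 (10.61 and 10.62), Mbd3 (9.54 and 9.36) and Mbd2 (7.24 and 7.15). The 8 cells on arrays with Tex101 had Dnmt3b at 10.77 to 11.65 and Uhrf1 at 9.45 to 10.72. The 9 cells on arrays without it had Dnmt3b from the floor to 11.73 and Uhrf1 from 8.29 to 10.89. Xist was detected in 8 of these 9 cells and in 0 of the 8 others. Hoxb1 was detected in 8 of the 8 cells with Tex101 and 3 of the 9 without it, and Dppa3 in 2 of 8 and 6 of 9. Sex as far as Xist shows it, set of arrays, replicate numbers and these differences in cell state therefore cannot be told apart here. Over all 17 precursors, E/MB PGCs differed by -2.23 in Dnmt3b and -3.08 in Uhrf1. Against only the 8 cells on arrays with Tex101, which all had Hoxb1, E/MB PGCs, which lie on such arrays too, differed by -3.49 in Dnmt3b and -3.4 in Uhrf1. Every PGC lay below every one of these precursors for both genes (0.264% of all genes). Dnmt3a differed by -1.51 and Tet1 by 1.88 in that comparison, and 3.19% of all genes were lower and 5.62% higher by 1 log2 unit.

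The 3 LS/0B precursors in which Dnmt3b was not detected (replicates 18, 19 and 20) still had Uhrf1, at 8.29, 8.34 and 9.92. They also had the highest Dppa3 signals of the 17 cells, at 11.44, 10.64 and 11.08, and Hoxb1 at the floor. The cells with the highest Dnmt3b, replicates 14, 5 and 7, had Dppa3 at the floor and Hoxb1 at 10.42, 9.22 and 10.16. Dppa3, or stella, is an early PGC gene whose protein protects methylation in the early embryo, and Hoxb1 belongs to the somatic mesoderm programme. Pearson's r between Dppa3 and Dnmt3b was -0.82 over the 17 cells, -0.82 over the 9 cells on arrays without Tex101 and -0.30 over the 8 with it. For Uhrf1 and Dnmt3b, r was 0.66 over all, 0.64 without Tex101 and -0.36 with it. These correlations describe cells that share array sets and amplification and may share embryos, and no p is given.

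**Figure D2:**
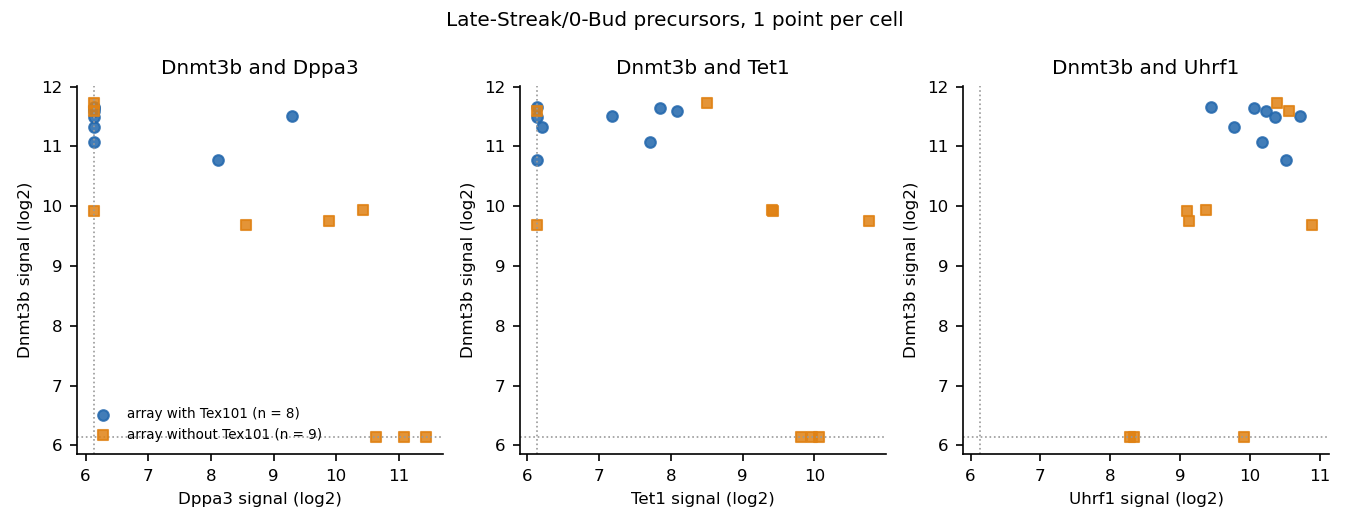
Dnmt3b signal (log2, y axis) against Dppa3, Tet1 and Uhrf1 signal (log2, x axes) in the 17 LS/0B precursors, 1 point per cell; circles, arrays with Tex101 (8 cells); squares, arrays without it (9 cells); dotted lines, the floor of 6.13. The 3 cells with Dnmt3b at the floor have Dppa3 above 10 and Uhrf1 above 8.

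Among PGCs, cells differed in which of these genes were detected. At E/MB, Dnmt3b and Uhrf1 were both detected in 2 cells, Dnmt3b alone in 3 and neither in 3. At EHF, 0 cells had both, 2 had Dnmt3b alone, 3 had Uhrf1 alone and 3 had neither. At E8.25, 2 cells had both, 2 had Uhrf1 alone and 4 had neither. Each gene was thus found without the other, Dnmt3b at E/MB and EHF, and Uhrf1 at EHF and E8.25 and in 3 LS/0B precursors.

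Tet1 was detected in most cells of the lineage. Its cells ranged from 7.26 to 10.62 in PS epiblast (median 9.55), from 7.97 to 9.48 in E/MS precursors (median 9.11) and from the floor to 10.76 in LS/0B precursors (median 7.85). In PGCs they ranged from the floor to 9.98 at E/MB (median 9.32), from the floor to 9.76 at EHF (median 9.0) and from 7.74 to 9.86 at E8.25 (median 9.33). The E8.25 PGCs differed from PS epiblast by -0.35, within the SDs of 0.86 and 1.09. The step into LS/0B was -0.97 and the step out of it 0.83. The first lay between -1.14 and -1.0 without the LS/0B precursor of replicate 18, 19, 20, 21, 22 or 24 or the E/MS precursor of replicate 2 or 7. The second lay between 1.0 and 1.21 without the E/MB PGC of replicate 3 or 8 or the LS/0B precursor of replicate 22. On arrays with Tex101 the LS/0B cells had Tet1 at 6.93 ± 0.87 (4 of 8 detected), a difference of -2.44 from PS epiblast, and E/MB PGCs were higher by 1.88. In that comparison with PS epiblast, 3.78% of all genes were lower and 1.76% higher by 1 log2 unit, and Dnmt3b differed by -1.28 with no overlap of cells (0.0989% of all genes). Xist was detected in all of the PS cells and in none of these LS/0B cells. On arrays without Tex101 the LS/0B cells had 8.91 ± 1.69 (7 of 9 detected), a difference of -0.03 from E/MS precursors, while Dnmt3b differed by -2.72 (1.73% of all genes were lower and 3.62% higher). Of these 9 cells 8 had Xist, which 0 of 7 E/MS precursors had. With Xist cells left out, Tet1 had the larger step of the 2 genes: the step from E/MS to LS/0B was -2.10 for Tet1 and -0.53 for Dnmt3b, and the step from LS/0B to E/MB was 1.97 for Tet1. Of the 9 LS/0B cells then left, 8 lay on arrays with Tex101, as 0 of 7 E/MS precursors did. That step from E/MS thus lies almost wholly across sets of arrays. The steps of Tet1 and Dnmt3b into LS/0B thus depend on which of the LS/0B cells are compared. Another probe set of Tet1 was at 7.34 ± 1.15 in PS epiblast, 6.49 ± 0.63 in LS/0B precursors and 7.45 ± 1.12 in E/MB PGCs, and the remaining 2 were detected in 0 to 2 cells of each group.

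Tet2 was detected in 16 of 106 cells. It was found in 0 of 8 PS cells and 4 of 8 E8.25 PGCs, at 6.99, 7.44, 8.39 and 9.60, with the other 4 at the floor, and in 1 of 8 cells of each of the earlier PGC groups. The means were 6.24 ± 0.32 in PS epiblast and 7.12 ± 1.30 at E8.25, a difference of 0.87, or 1.02 without any of the 4 cells at the floor (replicates 3, 4, 6 and 7, each left out alone). Its second probe set was detected in 2 of 8 E8.25 PGCs, in 1 of 8 EHF PGCs and in 0 cells of every other group.

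Dnmt1, the maintenance enzyme, was detected in all 106 cells, and its group means lay between 10.31 ± 0.74 (E8.25 PGCs) and 11.05 ± 0.32 (mesoderm). The lowest cell was at 9.13, in E8.25 PGCs. Its differences in the 13 comparisons lay between -0.47 and 0.25. Mbd3 was likewise detected in all 106 cells, with means from 9.20 ± 0.83 in E8.25 PGCs to 10.13 ± 0.59 in mesoderm. In the order of the group means, no gap between neighbours exceeded the larger SD for either gene. The other 2 probe sets of Dnmt1 were also detected in every cell but 1, an E8.25 PGC.

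Dnmt3l was detected in 4 of 8 PS epiblast cells, at 7.22, 7.97, 7.31 and 7.32, and in 0 of 8 cells of each PGC group. Its mean over all 8 PS cells was 6.80 ± 0.73. Elsewhere it was detected in 1 of 17 LS/0B precursors, 1 of 4 EHF Blimp1+ Hoxb1+ cells and 2 of 20 LS/0B knockout cells. Mbd2 was detected in 40 of 106 cells, from 1 of 8 in PS epiblast and E8.25 PGCs to 10 of 20 in LS/0B knockout cells, with means between 6.33 ± 0.55 and 7.25 ± 1.17. Its 2 probe sets disagreed: the other was at the floor in all PS cells and at 8.19 ± 1.29 in EHF PGCs (6 of 8 detected), where the one used was at 6.52 ± 0.89 and 7.08 ± 0.99. Apobec1 was detected in 0 cells of every group. The exact 95% upper limits of the share of cells with a detected signal ran from 16.8% (0 of 20) to 60.2% (0 of 4), and do not limit the share of cells with the transcript.

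**Figure D3:**
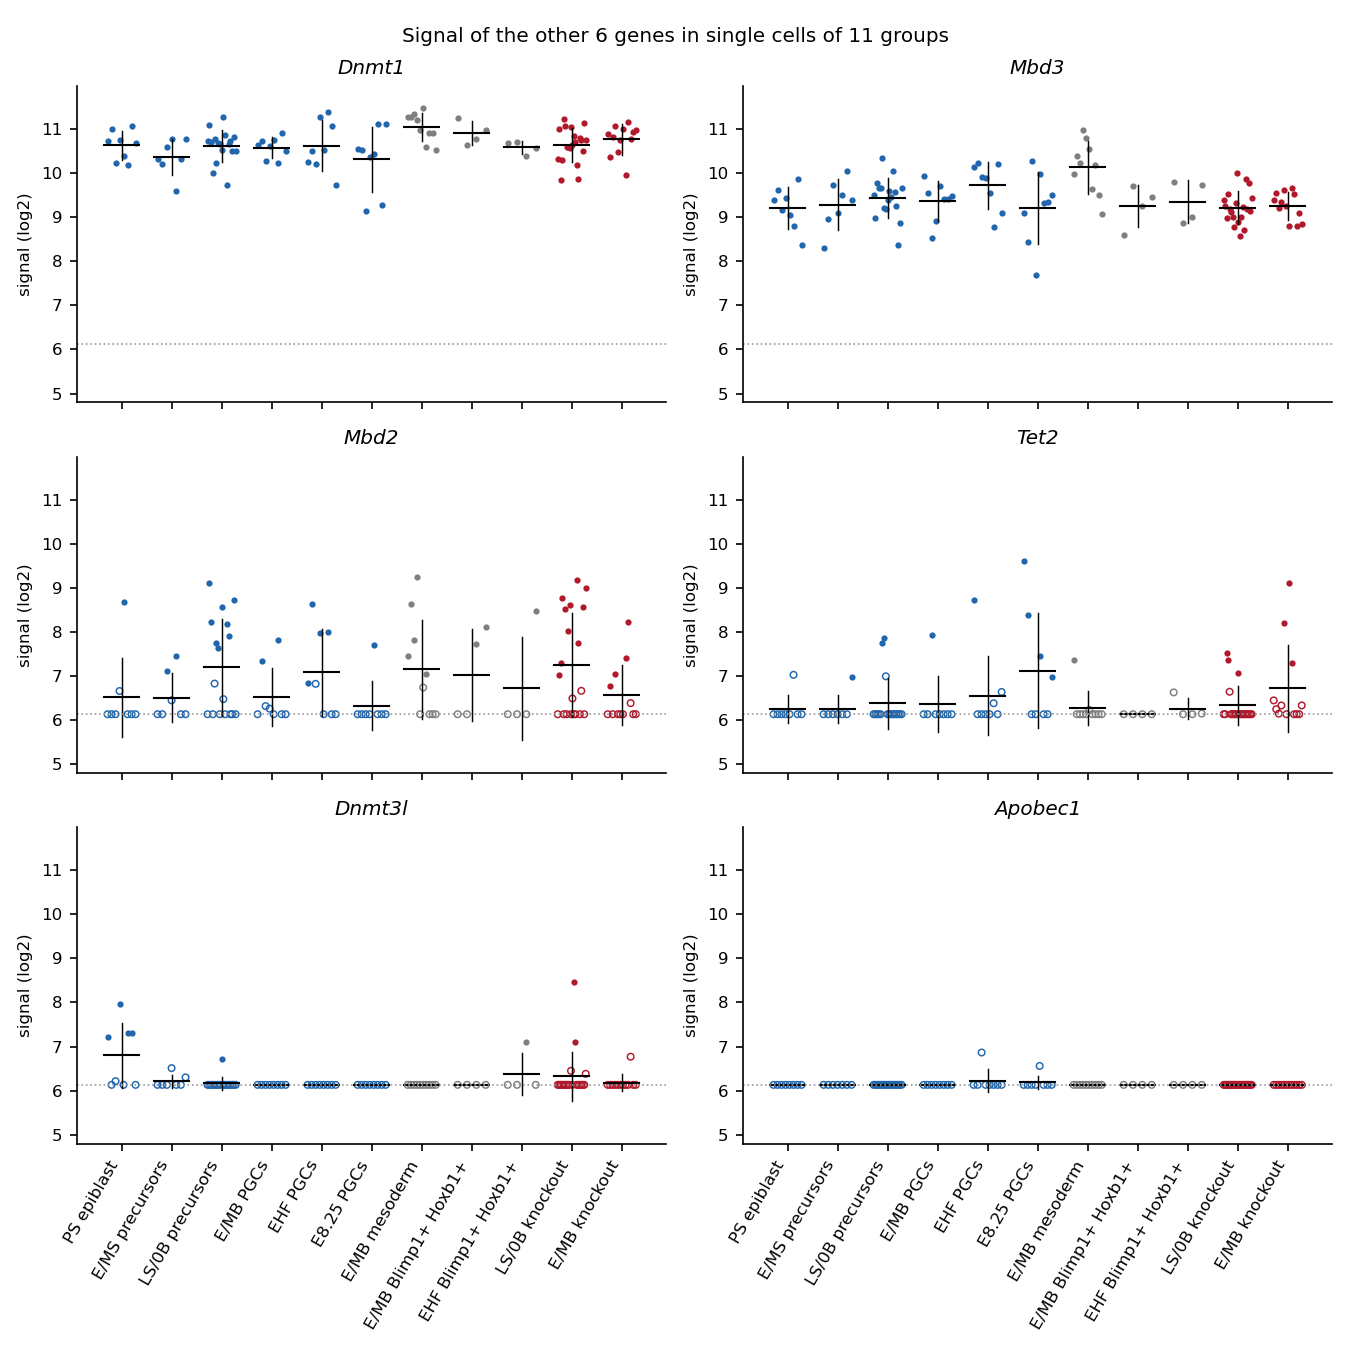
Signal (log2, y axis) of Dnmt1, Mbd3, Mbd2, Tet2, Dnmt3l and Apobec1 in each cell of the 11 groups (x axis); blue, wild-type lineage; grey, mesoderm and Blimp1+ Hoxb1+ cells; red, knockout; filled points were detected, black bars are mean ± SD over cells, and the dotted line is the floor of 6.13. Dnmt1 and Mbd3 were detected in all 106 cells, Apobec1 in 0.

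**Figure D4:**
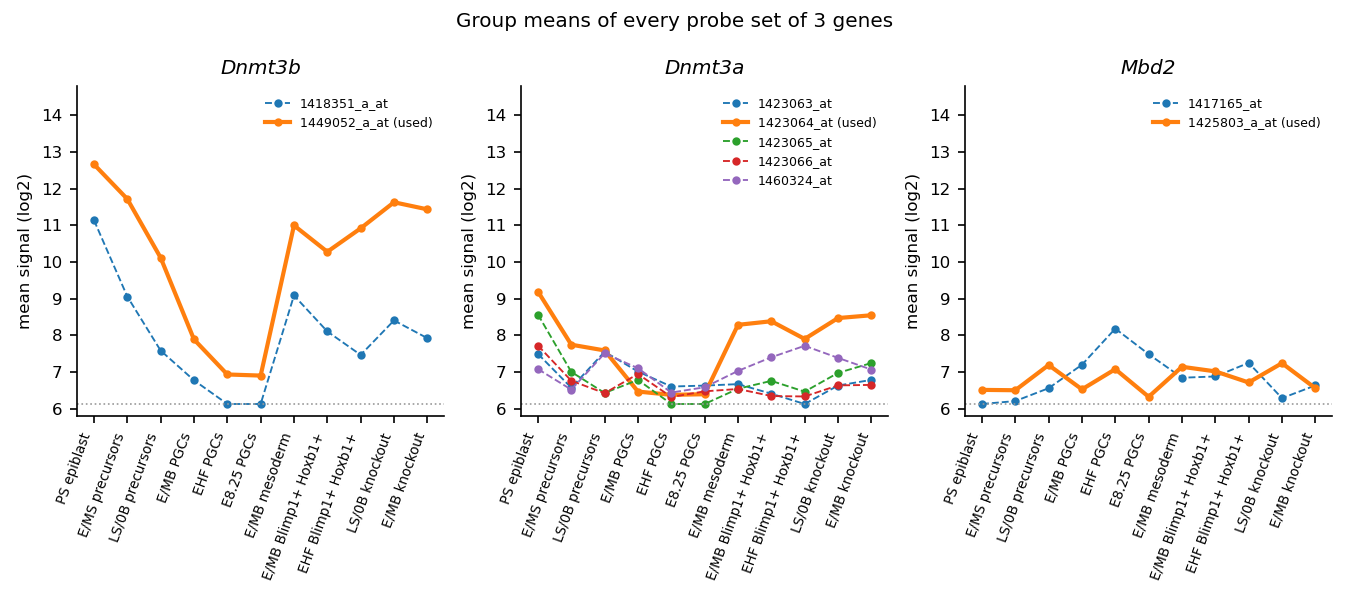
Group means (log2, y axis) of every probe set of Dnmt3b, Dnmt3a and Mbd2 over the 11 groups (x axis); thick line, the probe set used; dashed lines, the others; dotted line, the floor. Both Dnmt3b sets run down along the lineage to 6.13 or 6.91 at E8.25, whereas those of Dnmt3a and Mbd2 differ in pattern.

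Neighbouring cells outside the germline had high signals of Dnmt3b and Uhrf1. In E/MB mesoderm, Dnmt3b ranged from 10.45 to 11.94 (median 10.86), Uhrf1 from 6.51 to 9.87 (median 9.49) and Dnmt3a from the floor to 9.08 (median 8.54). E/MB PGCs differed from mesoderm by -3.11 for Dnmt3b, -2.25 for Uhrf1 and -1.82 for Dnmt3a, and by 1.69 for Tet1, which was detected in 4 of 10 mesoderm cells and 7 of 8 PGCs. A few cells of the groups overlapped for each of the 4 genes. So 3 of 10 members were lower and 1 higher, against 3.62% and 8.43% of all genes. Rescaled to the hybridisation controls, in which mesoderm arrays stood apart, Uhrf1 differed by -0.96 and Dnmt3a by -0.58, both under 1 log2 unit. Averaged over probe sets, Dnmt3a differed by -0.15 and Tet1 by 0.66.

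Cells with Blimp1 and Hoxb1 share expression of Blimp1 with PGCs. In the 4 such cells at E/MB, Dnmt3b was at 7.88, 10.80, 11.17 and 11.27 and Uhrf1 at 10.06, 10.22, 10.23 and 10.77. In the 4 at EHF, Dnmt3b was at 10.39, 10.91, 11.07 and 11.31 and Uhrf1 at 8.51, 10.18, 10.72 and 10.81. Except for the Dnmt3b value of 7.88, these values were all 8.51 or higher. E/MB PGCs differed by -3.56 in Uhrf1, with no overlap of cells, by -2.39 in Dnmt3b and by -1.92 in Dnmt3a. EHF PGCs differed by -3.98 in Dnmt3b and -3.39 in Uhrf1, both without overlap, and by -1.52 in Dnmt3a. Thus 3 of 10 members were lower and 0 higher at each stage, against 5.52% and 5.21% of all genes at E/MB and 5.54% and 6.94% at EHF. Among genes detected in at least 50 percent of the cells of either group, these shares were 11.1% and 10.2% at E/MB and 11.4% and 14.1% at EHF. Cells did not overlap, in the lower direction, for 1.03% and 1.50% of all genes. Mesoderm markers were lower in PGCs for 6 of 6 genes in the comparison with mesoderm and in both comparisons with Blimp1+ Hoxb1+ cells, and germ cell markers higher for 6 of 6. These lists hold Hoxb1, Prdm1 and Dppa3, by which the cells were chosen, so these counts are in part set by that choice. Their part in the members' differences was not tested. Dnmt3a, averaged over probe sets, differed by -0.20 and -0.53. Tet1 differed by 0.15 and 0.28.

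Cells without Blimp1 had high levels of all 3 genes at both stages. At LS/0B, Dnmt3b ranged from 10.59 to 12.59 in the 20 knockout cells (median 11.65), Uhrf1 from 8.99 to 10.59 (median 10.21) and Dnmt3a from 6.92 to 9.87 (median 8.67). At E/MB, Dnmt3b ranged from 10.86 to 11.95 in the 12 cells (median 11.50), Uhrf1 from 9.28 to 10.83 (median 10.16) and Dnmt3a from the floor to 9.88 (median 8.55). No E/MB knockout cell was as low in Dnmt3b or Uhrf1 as the highest E/MB PGC. These cells differed from E/MB PGCs by 3.54 in Dnmt3b and 3.28 in Uhrf1, both without overlap, and by 2.08 in Dnmt3a with overlap. So 3 of 10 members were higher and 0 lower, against 4.0% and 3.61% of all genes, and the groups did not overlap in that direction for 0.148% of genes. Among genes detected in at least 50 percent of the cells of either group, 8.31% were higher and 7.61% lower, and 0.293% did not overlap in that direction. Averaged over probe sets, the difference of Dnmt3a was 0.40. Knockout and PGC arrays lay in different sets. PS epiblast cells, on the same set of arrays as the PGCs, had Dnmt3b at 12.43 or above and Uhrf1 at 9.02 or above. They are of another stage and 8 of 8 had Xist, so the set of arrays and the knockout still cannot be told apart. The germ cell markers were lower in knockout cells for 6 of 6 genes (median -3.63) and the mesoderm markers higher for 6 of 6 (median 2.20). Among the germ cell markers are Dppa3, by which PGCs were chosen, and Prdm1, the targeted gene. Their summed signal ranged from 7.36 to 12.31 in knockout cells and from 13.37 to 13.95 in PGCs for germ cell markers, and from 11.80 to 13.3 and 7.30 to 12.33 for mesoderm markers. Their part in the difference was not tested.

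At LS/0B, 1 of 10 members was higher in knockout cells (Dnmt3b, by 1.51) and 0 were lower, against 1.06% and 0.390% of all genes. Among genes detected in at least 50 percent of the cells of either group, 2.40% were higher and 0.770% lower. The difference of medians for Dnmt3b was 0.58, and Dnmt3b was detected in 14 of 17 wild-type precursors and 20 of 20 knockout cells. Dnmt3a was higher by 0.88, or by 1.01 without the wild-type cell of replicate 2. Against the 9 wild-type precursors on arrays without Tex101, the set to which the knockout arrays belong, the differences were 2.63 for Dnmt3b, 1.23 for Dnmt3a, 0.48 for Uhrf1 and -0.11 for Tet1, and 1.41% of all genes were higher by 1 log2 unit and 1.74% lower. These 9 cells include the 3 without Dnmt3b, and 8 of them had Xist, which 0 of 20 knockout cells had. Against the 9 wild-type precursors without Xist, which include the 8 on arrays with Tex101, the differences were 0.44 for Dnmt3b, under 1 log2 unit, 0.70 for Dnmt3a, -0.21 for Uhrf1 and 1.96 for Tet1. Which member was higher in knockout cells therefore differed between these subsets of wild-type cells. Germ cell markers, which include the targeted gene Prdm1, were lower in knockout cells for 5 of 6 genes. Mesoderm markers were higher for 2 of 6, and the part of both lists was not tested. From LS/0B to E/MB, 0 of 10 members differed by 1 log2 unit between knockout groups: -0.19 for Dnmt3b, 0.01 for Uhrf1, 0.08 for Dnmt3a and -0.46 for Tet1. Over all genes, 0.544% were higher and 0.676% lower. The wild-type step over the same stages, which shares no cells with it, was -2.23, -3.08, -1.12 and 0.83 for these 4 genes. The difference between these steps was not tested.

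Compared with mesoderm of the same stage, E/MB knockout cells were higher by 1.22 in Tet1 and 1.03 in Uhrf1, and 0 members were lower. Over all genes, 6.89% were higher and 1.29% lower. Among genes detected in at least 50 percent of the cells of either group, 15.1% were higher and 2.82% lower. Leaving out the mesoderm cell of replicate 2 or 10, or the knockout cell of replicate 6, 9, 11 or 12, brought Uhrf1 to between 0.75 and 1.0, under the threshold. Averaged over probe sets, Uhrf1 differed by 0.54 and Tet1 by 0.32. Centred on the hybridisation controls, Dnmt1, Dnmt3a and Dnmt3b were also past it, at 1.37, 1.75 and 2.10. On the deposited scaling, Dnmt3b differed by 0.44 and Dnmt3a by 0.26.

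**Figure D5:**
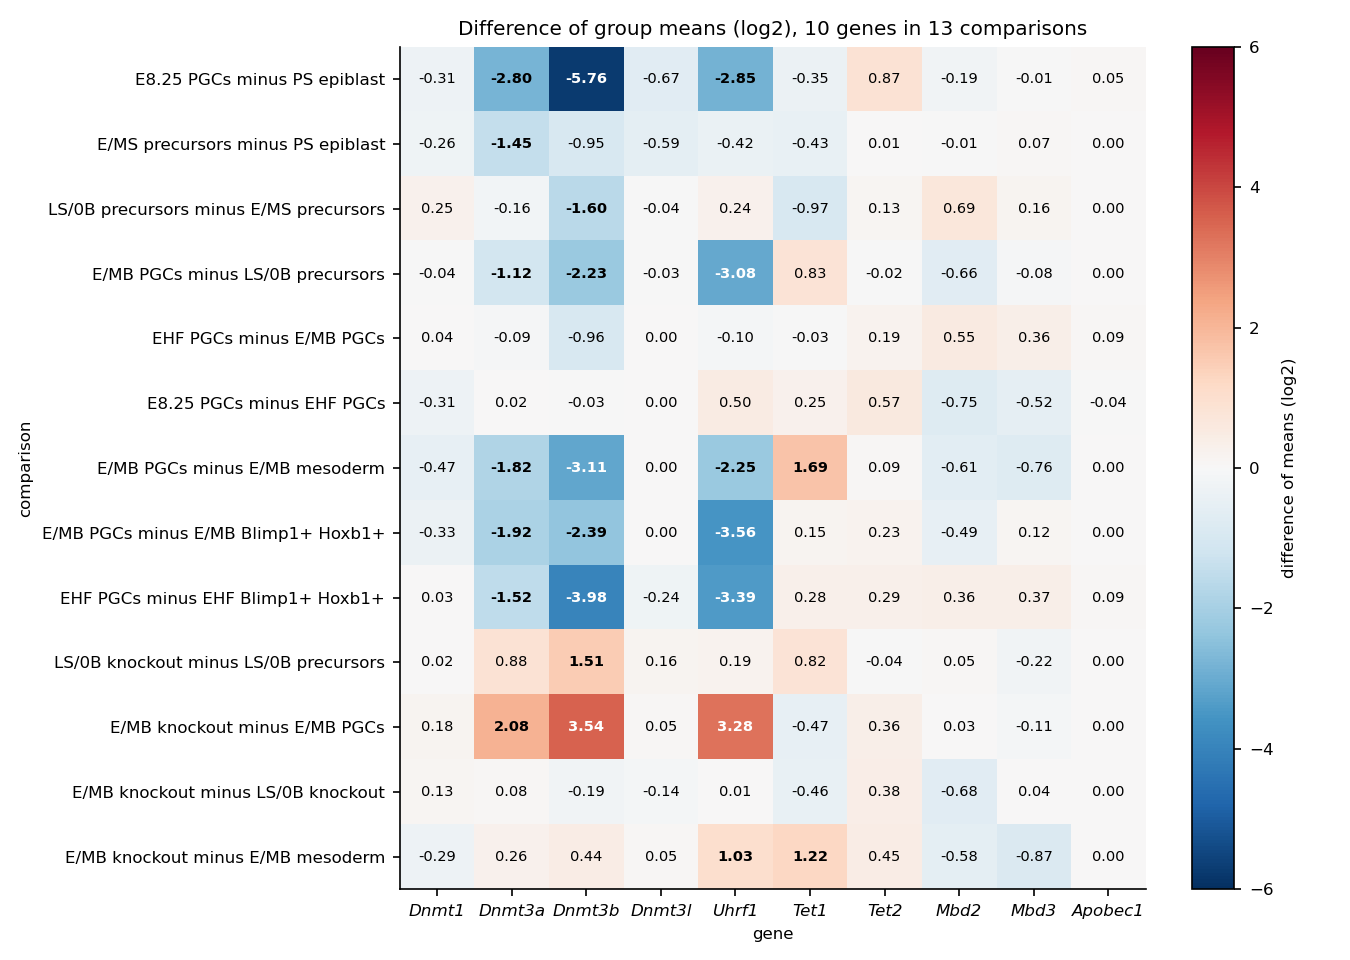
Difference of group means (log2, colour and printed value) of the 10 members (x axis) in the 13 comparisons (y axis), named as first group minus second group; values of 1 or more in size are bold. The columns of Dnmt3b, Uhrf1 and Dnmt3a hold most of the bold values, from -5.76 to 3.54, and those of Dnmt1, Dnmt3l, Tet2, Mbd2, Mbd3 and Apobec1 hold none.

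The other genes of these pathways were counted over lists, of which 106 of 114 symbols were measured. Of 7 genes listed under maintenance (Hells, Pcna, Usp7, Lig1, Cdca7, Uhrf2 and Trdmt1), 1 was higher in E8.25 PGCs than in PS epiblast and 0 lower. That gene was Uhrf2, a relative of Uhrf1, at 10.48 ± 0.36 (8 of 8 detected) against 7.82 ± 1.93 (3 of 8), a difference of 2.66. It was already at 10.34 ± 0.54 in E/MS precursors, and whether Uhrf2 takes part in maintenance in these cells was not tested. Pcna, the replication clamp, was detected in every cell of every group with means between 12.17 and 12.58, and Hells, a chromatin remodeller needed for methylation, had means of 9.85 in PS epiblast and 9.37 in E8.25 PGCs. In the step from LS/0B to E/MB, 0 of the 7 differed by 1 log2 unit.

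Of 7 other demethylation enzymes measured, 1 was higher and 1 lower at E8.25 than in PS epiblast. Gadd45a, a stress-induced gene with a proposed role in demethylation, was at 8.47 ± 1.18 (7 of 8) against 6.53 ± 0.62 (1 of 8), a difference of 1.94, and was higher by 1.67 in E/MB PGCs than in LS/0B precursors. It was at 6.60 ± 0.78 in E/MB knockout cells, -1.69 from PGCs. Apobec3, a cytidine deaminase, was at 6.29 ± 0.19 (0 of 8) against 7.77 ± 0.74 (7 of 8), at least 1.72-fold lower. Tet3 was at the floor in every cell of every group.

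Of 10 base excision repair genes measured, 1 was higher and 0 lower in E8.25 PGCs than in PS epiblast. This was Parp1, which senses strand breaks, by 1.37 and with no overlap of cells, and it also differed by 1.27 in the step from LS/0B to E/MB. Of 11 NuRD subunits, 1 was higher and 0 lower: the helicase Chd3, by 2.98 with no overlap, and by 1.73 in the step from LS/0B to E/MB. In that direction, cells of E8.25 PGCs and PS epiblast did not overlap for 0.594% of all genes. In E/MB knockout cells, Chd3 was -1.36 and the uracil glycosylase Ung -1.24 from PGCs. Among 6 other methyl-CpG readers, Mbd1 was higher at E8.25 by 1.72 and 0 were lower, and among 4 genes of methyl donor supply 0 passed 1 log2 unit.

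Of 12 germline genes whose promoters are known to be methylated in somatic cells, 0 were higher and 1 lower at E8.25 than in PS epiblast: Ddx4, the germ cell helicase, by -1.39, with 2 of 8 against 6 of 8 cells detected. In E/MB PGCs, 1 of 12 was higher than in LS/0B precursors. That was Tex101, which marked the sets of arrays. Of 14 genes of S phase, 3 were lower and 1 higher in E8.25 PGCs than in PS epiblast. Ccne1, which drives entry into S phase, differed by -2.66, the replication factor Gins2 by -2.54, Ccne2 by -1.22, and the topoisomerase Top2a by 1.12. In the step from LS/0B to E/MB, in which Uhrf1 differed most, Gins2 differed by -1.65, Rrm2, a ribonucleotide reductase subunit, by -1.64 and Cdc6, a licensing factor, by -1.07, and 0 of 14 were higher. Gins2, Rrm2 and Cdc6 were also higher in E/MB knockout cells than in PGCs, by 2.06, 1.84 and 1.44. Uhrf1 transcription is known to follow the cell cycle, and the part of S phase genes in its difference was not tested.

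The genes with group means most like those of the members were found among 1978 genes that span 2 log2 units or more, as Pearson's r over the 11 group means. For Dnmt3b they were Prps1 (r = 0.98), Fabp5 (0.96) and Snhg4 (0.96). For Uhrf1 they were Sox11, Atp6v1d and Kif5b (0.96 each), for Dnmt3a Trio (0.96), Pold2 (0.95) and Snhg4 (0.94), and for Tet1 Nampt (0.91), Snhg14 (0.90) and Msh6 (0.90). The 11 means share array sets and stages, and the values are descriptions.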

How the data were processed

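Single cells were picked from dissociated embryo fragments, lysed, and their cDNA amplified by PCR and labelled by the one-cycle Affymetrix method, per the labels' protocols. The deposited intensity values are linear MAS5 signals of the authors, as the submitters' processing notes name the method. Its scaling target is not given in the sources used here. The lowest signal, 1, made up 15.3% of the values. The 1 missing value, in no member, was replaced by its probe set's median. Of 45101 probe sets, 34945 have 1 gene symbol, giving 18193 genes. For genes with several, the probe set with the highest mean log2 was used.

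The floor (signal 70.2) was the median over arrays of the 90th percentile of 126 background probe sets (receptor and keratin-associated genes). Detection limits, their 95th percentile per array, lay between 82.8 and 166. A difference is that of group means of floored log2 signal, and 1 log2 unit is a statement of size. Since no embryo is named, differences carry no test or standard error, and intervals cover counting error only. Precision is limited by how many arrays a group has. The calculation was tested on simulated data in which only genes of high mean and small SD were shifted. That does not cover members near the floor.

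Members and lists were chosen with earlier results of these data known. Named genes were all members, up to 4 list genes per list and comparison past 1 log2 unit, the genes that chose the cells, the cell type markers, and the 3 genes most like each member whose group means span 2 log2 units. Pcna, Hells and Tet3, which passed no such rule, and the use of Tex101 to mark arrays were chosen after their values were seen. Mbd2's promoter is not shown. Alternatives were other floors, probe set rules, scalings, medians, detection limits of 90 and 99 percent, cells with Xist left out, and each cell left out. Python 3.11.15, numpy 2.4.6, pandas 2.3.3 and scipy 1.17.1 were used.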

Additional observations from a re-analysis of the deposited data

Results flagged for a closer look

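Of 68 gene and group combinations with 4 to 10 cells, 17 had 1 cell far from the others. Chance gives about 1 in 20, and most of these cells are the only one above the floor or the only one at it, so the number is not a count of unusual cells. For Dnmt3a, E/MB PGC replicate 8 was at 8.59 and E8.25 PGC replicate 2 at 8.26, each far above the other cells, and mesoderm replicate 3 was at the floor of 6.13 while the next was at 7.81. For Dnmt3b, E/MB Blimp1+ Hoxb1+ replicate 1 was at 7.88, below the next at 10.80. For Dnmt3l, EHF Blimp1+ Hoxb1+ replicate 3 was at 7.09. For Tet1, EHF PGC replicate 8 was at 6.13, below the next at 8.49. For Tet2, single high cells stood at 7.03 (PS epiblast), 6.98 (E/MS precursors), 7.93 (E/MB PGCs), 8.72 (EHF PGCs), 7.37 (mesoderm) and 6.63 (EHF Blimp1+ Hoxb1+). For Mbd2, they stood at 8.68 (PS epiblast), 7.70 (E8.25 PGCs) and 8.48 (EHF Blimp1+ Hoxb1+). For Apobec1, they stood at 6.87 (EHF PGCs) and 6.56 (E8.25 PGCs), both under the detection limit of their arrays.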

How the results depend on the processing

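No member difference past 1 log2 unit turned its direction under any alternative tried. Of the 24 such differences, 24 stayed past 1 without a floor, 24 with the probe set detected in most cells, 23 under quantile normalization, 23 centred on broadly detected genes, 22 centred on hybridisation controls, 21 with the higher floor, 21 with medians over cells and 16 with the mean over probe sets. Comparisons with PS epiblast could not be made without Xist cells, because all PS cells had Xist. Where Xist cells were left out, 9 of 11 stayed. The 2 lost were Dnmt3b from E/MS to LS/0B (-0.53) and in knockout against wild-type cells at LS/0B (0.44), and Tet1 came past 1 in both (-2.10 and 1.96), so the count there is of a different gene. Without Xist cells, both of these comparisons lie almost wholly across the sets of arrays. Tet1 from LS/0B to E/MB (1.97) and Mbd2 from EHF to E8.25 (-1.10) also came past 1. With LS/0B precursors of 1 set of arrays, chosen after seeing the data, 5 of 5 stayed. Signal over background limits Dnmt3a, Dnmt3l, Tet2, Mbd2 and Apobec1 most. The cause of the moves was not tested.

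The number of members past 1 moved as follows. Without a floor it was 6 (from 3) from PS to E8.25, 3 (from 1) from PS to E/MS, 3 (from 1) from E/MS to LS/0B, 5 (from 3) from LS/0B to E/MB, 4 (from 0) from E/MB to EHF, 2 (from 0) from EHF to E8.25, 3 (from 1) for knockout against wild type at LS/0B and 1 (from 0) between knockout stages. With the mean over probe sets it was 2 from PS to E/MS, 2 (from 4) for PGCs against mesoderm and 0 (from 2) for knockout against mesoderm. Centred on hybridisation controls it was 2 from PS to E/MS, 1 from E/MB to EHF, 2 for PGCs against mesoderm, 2 for knockout against wild type at LS/0B and 5 for knockout against mesoderm. With medians over cells it was 2 from PS to E/MS, 1 from E/MB to EHF and 1 for knockout against mesoderm. It was 2 from E/MS to LS/0B centred on broadly detected genes, 1 from EHF to E8.25 without Xist cells, 0 and 1 for knockout against mesoderm with the higher floor and quantile normalization, and 2 for knockout against wild type at LS/0B within 1 set of arrays.

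The members' median moved without a floor to -0.44 (LS/0B to E/MB), 0.33 (E/MB to EHF), -0.83 (PGCs against mesoderm), -0.55 and -0.28 (PGCs against Blimp1+ Hoxb1+ cells at E/MB and EHF) and 0.43 (knockout against PGCs). Over genes detected in at least 50 percent of the cells of either group it was -0.60 (LS/0B to E/MB), -0.49 (E/MB PGCs against Blimp1+ Hoxb1+ cells) and 1.13 (knockout against PGCs). For PGCs against mesoderm it was -0.14 with the mean over probe sets and 0.051 centred on hybridisation controls, which also gave 1.11 for knockout against mesoderm.

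Leaving out each cell in turn gave 3 to 4 members past 1 from PS to E8.25, 1 to 2 from PS to E/MS, 1 to 2 from E/MS to LS/0B, 2 to 4 from LS/0B to E/MB, 0 to 1 from E/MB to EHF, 1 to 2 for knockout against wild type at LS/0B and 1 to 2 for knockout against mesoderm. It was 4 to 4 for PGCs against mesoderm, 3 to 3 for PGCs against Blimp1+ Hoxb1+ cells at both stages and for knockout against PGCs, and 0 to 0 for the remaining pair. Over all genes, those higher and lower by 1 log2 unit went from 1534 and 659 to 5715 and 58 for PGCs against mesoderm, and from 1253 and 234 to 6763 and 1 for knockout against mesoderm, when centred on hybridisation controls. There the higher share also went from 48.9% to 61.3% (PS to E8.25), from 46.0% to 26.1% (E/MB to EHF), from 52.8% to 88.4% (EHF to E8.25), from 73.1% to 84.1% (knockout against wild type at LS/0B), from 52.6% to 68.8% (knockout against PGCs) and from 44.6% to 65.5% (knockout stages). For the mesoderm comparisons it went from 69.9% to 52.7% and from 84.3% to 63.3% centred on broadly detected genes, and to 56.2% and 66.2% under quantile normalization. No paired analysis was possible because each array is 1 cell whose replicate number names no embryo, and no test was run.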
